A study of Mus musculus with 36 samples.

Results

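The glutamate-glutamine cycle was followed through 7 genes in an RNA-seq series from mouse brain. They were taken by symbol from the deposited count and CPM tables (CPM, a count scaled to its library's total), which list 56184 symbols in the larger table. The 7 are the enzymes Glul, Gls2 and Glud1, the glial glutamate transporters Slc1a2 and Slc1a3, and the glutamine transporters Slc38a3 and Slc38a1, and all 7 had counts high enough to be tested. The mice lacked Gpt2, the mitochondrial alanine transaminase that links alanine and glutamate to pyruvate and α-ketoglutarate, or were wild type. Both genotypes received dm-αKG, an ester of α-ketoglutarate that crosses cell membranes, or vehicle by intraperitoneal injection. The groups were 8 libraries of Gpt2-KO mice with dm-αKG (KO-aKG), 10 of Gpt2-KO mice with vehicle (KO-Veh), 8 of Gpt2-WT mice with dm-αKG (WT-aKG) and 10 of Gpt2-WT mice with vehicle (WT-Veh). The dose of dm-αKG was 600 mg per kg, the brains were taken on postnatal day 19, and RNA was extracted from 10 mg of tissue. Not given in the sources used here are how many injections were made, the strain, sex and sampled region of the brain, and which part of Gpt2 the KO mice lack. Counts of Xist exceeded those of Ddx3y, the sex markers used here, in a larger share of dm-αKG than of vehicle libraries in both genotypes. A fit with a sex term is among the alternative fits. The replicates are called biological by the submitters, but no label names the animal behind a library, and the p-values reflect how much these libraries vary, part of which may be technical.

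In the glutamate-glutamine cycle, glutamate released by neurons is taken up by astrocytes and joined with ammonia to form glutamine. Glutamine is passed back to neurons, where it is turned into glutamate again. The cycle clears the transmitter from the synapse and returns its carbon skeleton, and α-ketoglutarate connects the glutamate pool to the tricarboxylic acid cycle through glutamate dehydrogenase and the transaminases.

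Libraries held 5.77 to 13.3 M counts. Gpt2 itself ran from 1.12 to 3.18 CPM in KO-aKG and from 0.881 to 3.30 CPM in KO-Veh libraries, against 26.3 to 38.1 CPM in WT-aKG and 22.0 to 39.0 CPM in WT-Veh libraries, so every library stood on the side its label gives. The libraries differed in markers of brain region. A cerebellum score, the mean log2 CPM of 21 markers of that region, ran from 1.77 to 5.67 in KO-aKG, from 1.95 to 7.29 in KO-Veh, from 1.96 to 6.99 in WT-aKG and from 3.11 to 7.26 in WT-Veh libraries. It exceeded the mean over the 36 libraries by more than 1 log2 unit in 9 of them, namely 1 KO-aKG, 1 KO-Veh, 4 WT-aKG and 3 WT-Veh libraries. Its mean was 3.32 ± 1.27 in KO-aKG and 3.22 ± 1.61 in KO-Veh, against 4.33 ± 2.32 in WT-aKG and 4.45 ± 1.81 in WT-Veh libraries (SD, n = 8, 10, 8 and 10). In tissue pieces of this kind, fewer cells of a type and less RNA per cell cannot be told apart.

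Levels below are CPM after TMM scaling of the libraries, and a gene is called changed when its p from edgeR's quasi-likelihood test was under 0.05 after Benjamini-Hochberg adjustment across the 16255 genes tested. None of the 7 genes was called between KO-Veh and WT-Veh, where edgeR called 4.31% of all genes (2.6% higher and 1.72% lower), or between KO-aKG and WT-aKG, where it called 1.87% (1.12% higher and 0.751% lower). At an unadjusted p under 0.05 there were 3 of the 7 with vehicle (Gls2, Glud1 and Slc38a3), beside 21.0% of all genes. With dm-αKG there were 2 (Glud1 and Slc38a3), beside 15.7% of all genes. DESeq2 called 0 of the 7 with vehicle, where it called 959 of 17482 genes. It called 1 of the 7 with dm-αKG, where it called 483 of 16771 genes. When the 2 genotype differences were averaged, a comparison added after the values by treatment had been seen, Slc38a3 and Glud1 were lower in KO than in WT. That comparison called 11.9% of all genes, 5.7% higher and 6.17% lower, so 2 of 7 is read against a high background. Within the groups, values varied with region markers: Slc1a2 and Glul were lower, and Slc1a3 and Slc38a1 higher, in libraries with more cerebellum marker RNA.

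**Figure D1:**
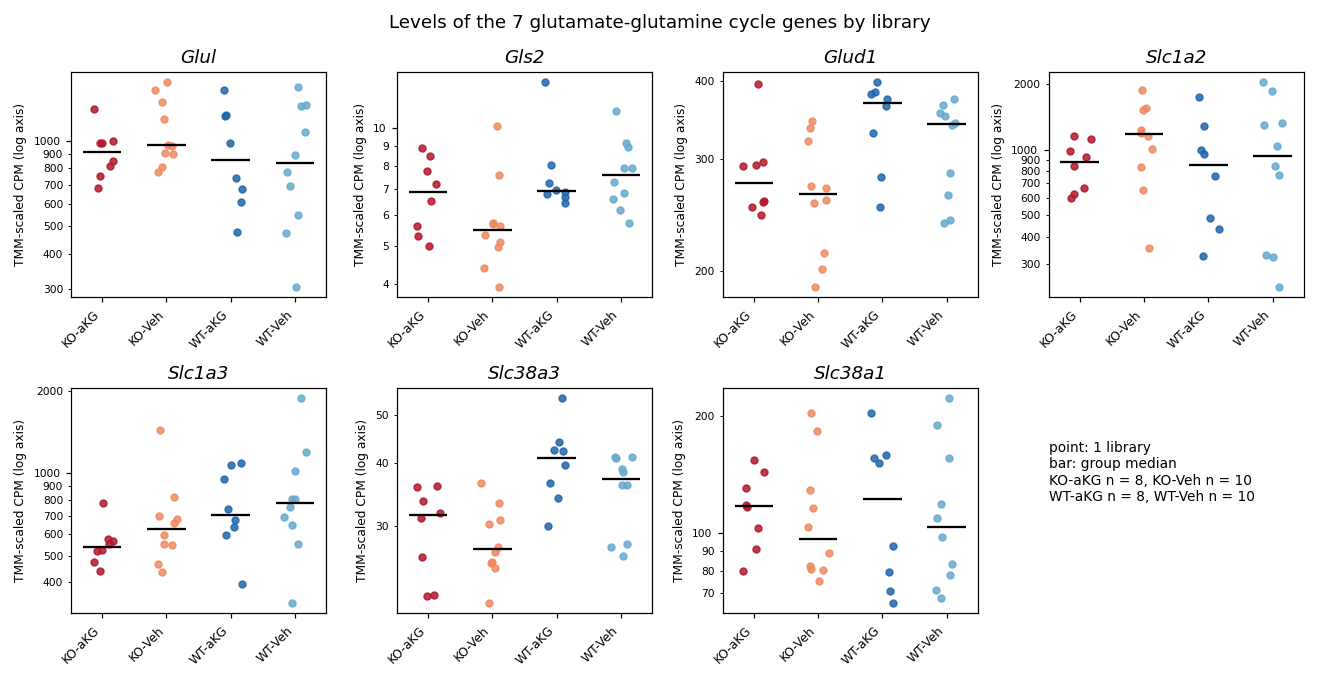
TMM-scaled CPM of each of the 7 genes on a log axis, by group, with 1 point per library and a bar at the group median (n = 8 KO-aKG, 10 KO-Veh, 8 WT-aKG and 10 WT-Veh libraries). The groups overlap for all 7 genes, and for Slc38a3 the median of WT-aKG libraries, 41.0 CPM, lies above the highest library of both KO groups.

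Glul encodes glutamine synthetase, the astrocyte enzyme that makes glutamine, and maps to chr1:153899944-153909723 in GRCm38, plus strand. The lowest, median and highest levels of Glul were 681, 912 and 1287 CPM in KO-aKG, 773, 962 and 1604 CPM in KO-Veh, 478, 857 and 1509 CPM in WT-aKG and 306, 831 and 1543 CPM in WT-Veh libraries. The groups overlapped, and the lowest libraries were WT libraries. The log2 fold change of KO-Veh over WT-Veh was 0.29 (SE 0.23, edgeR adjusted p = 0.468) with a 95% interval of −0.17 to 0.75. The fold change of KO-aKG over WT-aKG was −0.02 (SE 0.25, adjusted p = 0.983, interval −0.53 to 0.49), and its sign turned when libraries were scaled by their totals alone.

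Gls2 encodes the liver-type glutaminase, which releases ammonia from glutamine to form glutamate, and maps to chr10:128194457-128210004, plus strand. It was counted 40 to 181 times per library, the lowest of the 7. Its lowest, median and highest levels were 5.0, 6.85 and 8.90 CPM in KO-aKG, 3.93, 5.47 and 10.1 CPM in KO-Veh, 6.45, 6.91 and 13.1 CPM in WT-aKG and 5.73, 7.59 and 11.1 CPM in WT-Veh libraries. With vehicle, 8 of 10 KO libraries lay below the lowest WT library, and the highest KO library was replicate 7, the 1 KO-Veh library with a high cerebellum score. The log2 fold change of KO-Veh over WT-Veh was −0.40 (SE 0.15, interval −0.72 to −0.09) and missed the threshold with an edgeR adjusted p of 0.126. Without KO-Veh replicate 7 the fold change was −0.52 with an adjusted p of 0.0209, and without the 9 libraries of high cerebellum score it was −0.57 with an adjusted p of 0.0198. Averaged over treatments it was −0.29 (SE 0.12, adjusted p = 0.0889), and −0.36 with an adjusted p of 0.0177 without KO-Veh replicate 7. The fit without that library called 1666 of all genes with vehicle, against 701 with all libraries, and 2978 averaged, against 1930. For Gls2 the values below are from fits that keep it. With dm-αKG it was −0.19 (SE 0.17, adjusted p = 0.642). Over the alternative fits the difference in Gls2 ran from −0.57 to −0.26 with vehicle, the smallest with the astrocyte score in the model, from −0.30 to −0.19 averaged, and from −0.20 to −0.0049 with dm-αKG, where it was −0.033 without WT-aKG replicate 8. Gls2 shares 97 bases with Spryd4 on the opposite strand, which averaged 50.8 counts against 77.9 for Gls2, and no source used here says whether the counting used strand, so part of the Gls2 count may belong to Spryd4.

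Glud1 encodes glutamate dehydrogenase, the mitochondrial enzyme that converts glutamate and α-ketoglutarate into each other, and maps to chr14:34310727-34345265, plus strand. Its lowest, median and highest levels were 245, 276 and 394 CPM in KO-aKG, 188, 264 and 345 CPM in KO-Veh, 253, 369 and 398 CPM in WT-aKG and 238, 342 and 374 CPM in WT-Veh libraries. In 7 of 8 KO-aKG libraries it lay below the median of WT-aKG libraries, and in 9 of 10 KO-Veh libraries below that of WT-Veh libraries, and the groups overlapped. The log2 fold change was −0.25 (SE 0.12, edgeR adjusted p = 0.219) for KO-Veh over WT-Veh and −0.27 (SE 0.13, adjusted p = 0.303) for KO-aKG over WT-aKG. Averaged over treatments it was −0.26 (SE 0.09, interval −0.44 to −0.08, adjusted p = 0.0469), just under the threshold, and without 1 library at a time that call held in 10 of 36 fits, with fold changes of −0.30 to −0.24 and adjusted p-values up to 0.076. The averaged call was kept with the cerebellum score in the model, where the fold change was −0.33 with an adjusted p of 0.00422, and lost with the score of 21 astrocyte markers in it, where the fold change was −0.21 with an adjusted p of 0.102. It held in 6 of 12 alternative fits and was also lost without TMM (−0.17, adjusted p = 0.189), with limma (−0.18, adjusted p = 0.173 and 0.172 at pseudocounts 1 and 0.25), with upper-quartile factors (−0.24, adjusted p = 0.075) and with no low-count filter (−0.26, adjusted p = 0.0862). The pseudogene Glud-ps had at most 2 counts in a library.

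The promoters of Glul and Glud1 are shown because Glud1 was called in the averaged comparison and Glul, the enzyme that draws on the same glutamate, was not. Each run is the RefSeq promoter of GRCm38.p6, cut to 250 bases before and 10 bases after the transcription start and written 5′ to 3′ on the strand of the gene. The Glul window is chr1:153899679-153899938 on the plus strand and the Glud1 window is chr14:34310477-34310736 on the plus strand. Capitals mark matches on either strand to the CCAAT box, to the GC box with the letters GGGCGG, or to TGATGNAA.
Glul: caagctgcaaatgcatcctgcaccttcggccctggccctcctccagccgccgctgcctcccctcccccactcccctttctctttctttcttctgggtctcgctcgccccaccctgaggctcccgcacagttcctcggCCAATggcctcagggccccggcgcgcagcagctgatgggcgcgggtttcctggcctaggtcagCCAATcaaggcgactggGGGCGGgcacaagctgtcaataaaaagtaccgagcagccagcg
Glud1: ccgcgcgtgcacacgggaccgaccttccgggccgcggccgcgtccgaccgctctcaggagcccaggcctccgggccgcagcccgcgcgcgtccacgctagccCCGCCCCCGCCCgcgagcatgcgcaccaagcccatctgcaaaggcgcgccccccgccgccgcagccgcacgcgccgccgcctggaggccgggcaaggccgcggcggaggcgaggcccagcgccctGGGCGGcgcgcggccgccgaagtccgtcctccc
The Glul window holds 2 CCAAT boxes and 1 GC box, and the Glud1 window holds 3 GC boxes and no CCAAT. Among 32851 RefSeq promoter windows of the same length, 34.6% hold the CCAAT box, 33.4% hold this GC box and 3.59% hold TGATGNAA, the core of the element bound by ATF4 together with a C/EBP protein. The promoter table held 4 of the 7 genes (Glul, Glud1, Slc1a3 and Slc1a2). The Slc1a2 window lies inside the gene, away from the start of the span given here, and is not printed. It was searched with the rest, and TGATGNAA was in 0 of the 4 windows. Because of its place, the Slc1a2 window is not read as the promoter of that gene. Such matches describe the letters and do not show that a factor binds.

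Slc1a2 encodes GLT-1, the main glutamate transporter of forebrain astrocytes, and maps to chr2:102658659-102790784, plus strand. Its lowest, median and highest levels were 604, 881 and 1159 CPM in KO-aKG, 355, 1172 and 1872 CPM in KO-Veh, 326, 854 and 1739 CPM in WT-aKG and 236, 938 and 2034 CPM in WT-Veh libraries. The groups overlapped, and the lowest KO-Veh library was replicate 7. Across all 36 libraries the highest stood 8.62-fold above the lowest, the widest range of the 7. On the log2 scale the fold change was 0.18 (SE 0.33, edgeR adjusted p = 0.795, interval −0.49 to 0.85) for KO-Veh over WT-Veh and −0.01 (SE 0.37, adjusted p = 0.994, interval −0.76 to 0.74) for KO-aKG over WT-aKG. The sign of each turned under some alternatives.

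Slc1a3 encodes GLAST, the glutamate transporter that is strongest in the Bergmann glia of the cerebellum, and maps to chr15:8634124-8710764, minus strand. Its lowest, median and highest levels were 440, 538 and 781 CPM in KO-aKG, 438, 627 and 1440 CPM in KO-Veh, 394, 707 and 1091 CPM in WT-aKG and 336, 779 and 1874 CPM in WT-Veh libraries. In 7 of 8 KO-aKG libraries it was below the median of WT-aKG libraries, and in 8 of 10 KO-Veh libraries below that of WT-Veh libraries, while no KO library lay below the lowest WT library of its treatment. The log2 fold change was −0.33 (SE 0.22, edgeR adjusted p = 0.395) for KO-Veh over WT-Veh, −0.47 (SE 0.25, adjusted p = 0.353) for KO-aKG over WT-aKG and −0.40 (SE 0.17, adjusted p = 0.108) averaged. Without KO-Veh replicate 7, the KO library with most Slc1a3, the averaged fold change was −0.50 with an adjusted p of 0.0221. That library is the 1 KO-Veh library of high cerebellum score. The fit without it kept 3 WT-Veh, 4 WT-aKG and 1 KO-aKG libraries of high score. It called 2978 of all genes averaged, against 1930 with all libraries. With the cerebellum score in the model the averaged difference shrank to −0.17 (adjusted p = 0.452) and that with vehicle to −0.089 (adjusted p = 0.82), and without WT-Veh replicate 1 that with vehicle was −0.13. In the alternative fits other than those without a single library, Slc1a3 stayed lower in KO and was not called. Its promoter is shown because Slc1a3 went the other way from Glul and Slc1a2 with the cerebellum score, and its window is chr15:8710798-8711057 on the minus strand, with capitals as for the enzymes.
Slc1a3: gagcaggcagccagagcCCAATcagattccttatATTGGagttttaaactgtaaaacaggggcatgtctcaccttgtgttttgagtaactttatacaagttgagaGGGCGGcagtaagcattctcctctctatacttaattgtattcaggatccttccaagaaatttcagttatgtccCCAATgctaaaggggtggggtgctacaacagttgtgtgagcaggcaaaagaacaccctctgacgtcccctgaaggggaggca
It holds 3 CCAAT boxes and 1 GC box.

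Slc38a3 encodes SNAT3, the astrocyte transporter that releases glutamine, and maps to chr9:107650634-107669530, minus strand. Its lowest, median and highest levels were 21.7, 31.5 and 36.1 CPM in KO-aKG, 21.0, 26.9 and 36.5 CPM in KO-Veh, 30.0, 41.0 and 54.0 CPM in WT-aKG and 26.2, 37.3 and 41.3 CPM in WT-Veh libraries. All 8 KO-aKG libraries lay below the median of WT-aKG libraries and all 10 KO-Veh libraries below that of WT-Veh libraries. The groups still overlapped, with 3 KO-aKG and 4 KO-Veh libraries below the lowest WT library of their treatment. Means were 29.8 ± 5.89 CPM in KO-aKG and 40.5 ± 7.27 CPM in WT-aKG (SD, n = 8 each), and 28.1 ± 4.60 CPM in KO-Veh and 35.4 ± 6.11 CPM in WT-Veh libraries (SD, n = 10 each). The log2 fold change was −0.33 (SE 0.12, edgeR adjusted p = 0.0942) for KO-Veh over WT-Veh and −0.45 (SE 0.13, adjusted p = 0.0697) for KO-aKG over WT-aKG. Neither passed the threshold in edgeR. DESeq2 called the difference with dm-αKG (−0.45, adjusted p = 0.0377), and edgeR that with vehicle once KO-Veh replicate 7 was left out (−0.38, adjusted p = 0.0359). Without that library edgeR called 1666 of all genes with vehicle, against 701 with all libraries.

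Averaged over treatments, Slc38a3 was lower in KO than in WT by a log2 fold change of −0.39 (SE 0.09, interval −0.57 to −0.21, edgeR adjusted p = 0.0033). The call held without each of the 36 libraries in turn. It held with the cerebellum score in the model (−0.34, adjusted p = 0.00817), with the astrocyte score (−0.35, adjusted p = 0.00828) and without the 9 libraries of high cerebellum score (−0.33, adjusted p = 0.0331). Scaling by library totals alone gave −0.32 with an adjusted p of 0.0933, and limma on log2 of the deposited CPM plus 1 gave −0.30 with an adjusted p of 0.117, and with 0.25 added −0.31 with an adjusted p of 0.119, so the call was lost in these 3 fits and held in the other 9 of 12 alternatives. All 3 fits that lost it used no scaling beyond library totals. The 9 that kept it used TMM, upper-quartile or DESeq2 scaling. The limma fits also differed from the main fit in the test, the gene filter and the log transform. The part of scaling in the loss was not tested. Without TMM the median of all genes for KO-aKG over WT-aKG moved to 0.14 on the log2 scale, against −0.02 with it, and the fold changes of all genes move with it.

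Slc38a1 encodes SNAT1, a neuronal transporter that takes up glutamine, and maps to chr15:96571418-96642913, minus strand. Levels (lowest, median, highest) were 80.0, 118 and 154 CPM in KO-aKG, 75.3, 96.4 and 204 CPM in KO-Veh, 66.1, 122 and 204 CPM in WT-aKG and 68.2, 104 and 222 CPM in WT-Veh libraries. The ranges of all 4 groups overlapped, and the log2 fold changes were −0.06 for both genotype comparisons (SE 0.23 with vehicle and 0.26 with dm-αKG, edgeR adjusted p = 0.903 and 0.935). Their sign turned with the cerebellum score in the model, and that of the difference with dm-αKG also without TMM.

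**Figure D2:**
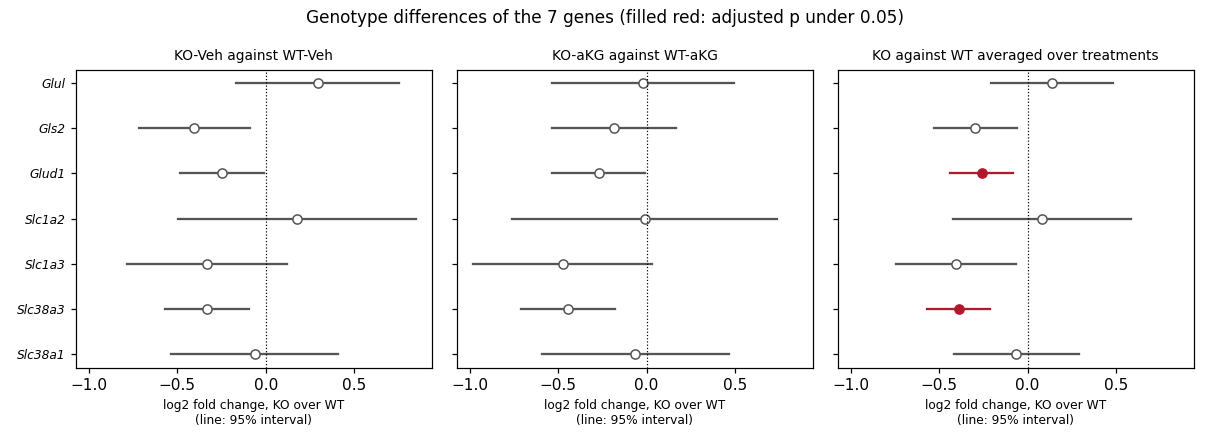
Log2 fold change of KO over WT for the 7 genes (x axis) with vehicle, with dm-αKG and averaged over both, as a point with its 95% interval from edgeR, filled red where the adjusted p was under 0.05. Slc38a3 (−0.39) and Glud1 (−0.26) in the averaged comparison are the filled points, and the widest intervals belong to Slc1a2.

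Over the 7 genes, the median log2 fold change was −0.25 for KO-Veh over WT-Veh, beside −0.02 over all genes tested, and −0.19 for KO-aKG over WT-aKG, beside −0.02. Averaged it was −0.26, again beside −0.02. Among all genes edgeR called 422 higher and 279 lower with vehicle, 182 higher and 122 lower with dm-αKG, and 927 higher and 1003 lower averaged. Without TMM these splits were 227 higher and 29 lower, 290 higher and 10 lower, and 1274 higher and 155 lower. Without 1 library at a time edgeR called 440 to 1666 genes with vehicle, where it called 701 with all libraries, and 132 to 360 with dm-αKG, where it called 304. The vehicle count was 1666 without KO-Veh replicate 7, 462 without replicate 4 and 440 without replicate 10. The count with dm-αKG was 162, 192 and 132 without KO-aKG replicates 2, 5 and 8 in turn, and 186 and 143 without WT-aKG replicates 1 and 6. Averaged it was 2978 without KO-Veh replicate 7, against 1930 with all libraries.

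Markers of brain region moved beside the genotype differences. Of 12 hypothalamus markers 4 were higher and 0 lower in KO averaged over treatments (median log2 fold change 1.74), 2 were higher and 0 lower with dm-αKG (median 2.12), and 0 were called with vehicle (median 0.82). Of 21 cerebellum markers 0 were higher and 1 lower averaged (median −1.40), and 0 were called in either treatment. Beside these counts, edgeR called 5.7% of all genes higher and 6.17% lower averaged. It called 1.12% higher with dm-αKG and 2.6% higher with vehicle. The 20 myelin markers had a median of −0.61 with vehicle and 0.12 with dm-αKG, with 0 called. With 5 region scores as covariates (cerebellum, cortex, striatum, hypothalamus and choroid plexus) the averaged fold change was −0.32 for Slc38a3 (edgeR adjusted p = 0.0149) and −0.35 for Glud1 (adjusted p = 0.00418). The other 5 genes were not called in that fit, where Gls2 was at −0.20 (adjusted p = 0.288) and Slc1a3 at −0.22 (adjusted p = 0.255). The part of the myelin markers was not tested.

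Astrocyte markers were set beside these values because Glul, Slc1a2, Slc1a3 and Slc38a3 are astrocyte genes. Of 21 astrocyte markers 0 were higher and 2 lower in KO-Veh than in WT-Veh libraries, 0 were called between KO-aKG and WT-aKG libraries, and 0 were higher and 3 lower averaged. Beside these counts, edgeR called 1.72% of all genes lower with vehicle and 6.17% lower averaged. The median log2 fold change of the 21 markers was −0.18 with vehicle, −0.13 with dm-αKG and −0.10 averaged. Aqp4, the water channel of astrocyte endfeet, fell to 48.0 ± 28.4 CPM in KO-Veh against 112 ± 67.1 CPM in WT-Veh libraries (SD, n = 10 each). This is a log2 fold change of −1.22 with an SE of 0.33 (edgeR adjusted p = 0.0264). The other of the 2, named after its value was seen, was Slc7a10, a neutral amino acid transporter of astrocytes (−0.82, SE 0.19, adjusted p = 0.00769). Gfap (−0.58, adjusted p = 0.349), Aldh1l1 (−0.18, adjusted p = 0.373) and Gja1 (−0.16, adjusted p = 0.286) were not called with vehicle. With dm-αKG Gfap was at 0.55, Gja1 at −0.0083, Aldh1l1 at −0.27 and Aqp4 at −0.62, without a call. No library lacked any of these 4 markers. The astrocyte score ran from 6.61 to 7.33 in KO-aKG, from 6.39 to 7.16 in KO-Veh, from 6.71 to 7.46 in WT-aKG and from 6.44 to 7.31 in WT-Veh libraries. Of the 7 cycle genes 1 changed with this score within groups, Gls2 with a slope of 0.70 log2 units per log2 unit (SE 0.22, edgeR adjusted p = 0.0318), where 11.4% of all genes did, 6.51% upward and 4.91% downward. That call ended without any of WT-Veh replicates 2 and 3, WT-aKG replicate 8, KO-Veh replicate 7 and KO-aKG replicates 1 and 8, and the slope of Gls2 was then 0.52 to 0.71 with adjusted p-values of 0.0506 to 0.16. The slopes of Slc38a3 (0.35, adjusted p = 0.209), Glud1 (0.46, adjusted p = 0.0917), Slc1a3 (0.50, adjusted p = 0.429), Slc1a2 (−0.11, adjusted p = 0.936) and Glul (−0.17, adjusted p = 0.835) were not called.

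With the cerebellum score as the x axis, 5 of the 7 genes had a slope within groups, where edgeR called 57.7% of all genes, 29.2% upward and 28.5% downward, so a slope on this score was common in these pieces. Slc1a2 fell by 0.38 log2 units per unit of the score (SE 0.05, edgeR adjusted p = 2.45e-08), Glul by 0.22 (SE 0.04, adjusted p = 4.67e-06) and Glud1 by 0.08 (SE 0.02, adjusted p = 0.00474). Slc38a1 rose by 0.23 (SE 0.03, adjusted p = 1.3e-07) and Slc1a3 by 0.18 (SE 0.03, adjusted p = 3.15e-05). Gls2 (0.06, adjusted p = 0.0853) and Slc38a3 (0.05, adjusted p = 0.0969) were not called. The slopes were estimated across libraries whose cerebellum score was measured in the same libraries, and the score stands for many cell types at once. Without TMM the slope of Glud1 was −0.01 with an adjusted p of 0.836, and those of Gls2 (0.13, adjusted p = 0.00132) and Slc38a3 (0.11, adjusted p = 0.00101) were called.

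The 9 libraries of high cerebellum score stood apart most for Slc1a2, at 236 to 756 CPM with a median of 355 CPM, against 604 to 2034 CPM with a median of 1122 CPM in the other 27. Slc1a3 had a median of 1074 CPM in the 9 and 598 CPM in the 27, with ranges of 394 to 1874 CPM and 336 to 816 CPM. Glul had a median of 610 CPM against 980 CPM, and Slc38a1 one of 158 CPM against 91.2 CPM. For Slc38a3 the medians were 39.0 CPM in the 9 and 30.3 CPM in the 27, and 7 of the 9 are WT libraries. WT-Veh replicate 1 had the lowest Slc1a2 (236 CPM) and Glul (306 CPM) and the highest Slc1a3 (1874 CPM) of all libraries, while its Slc38a1 (109.6 CPM) was the lowest of the 9. These values describe the split by score and were not tested.

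**Figure D3:**
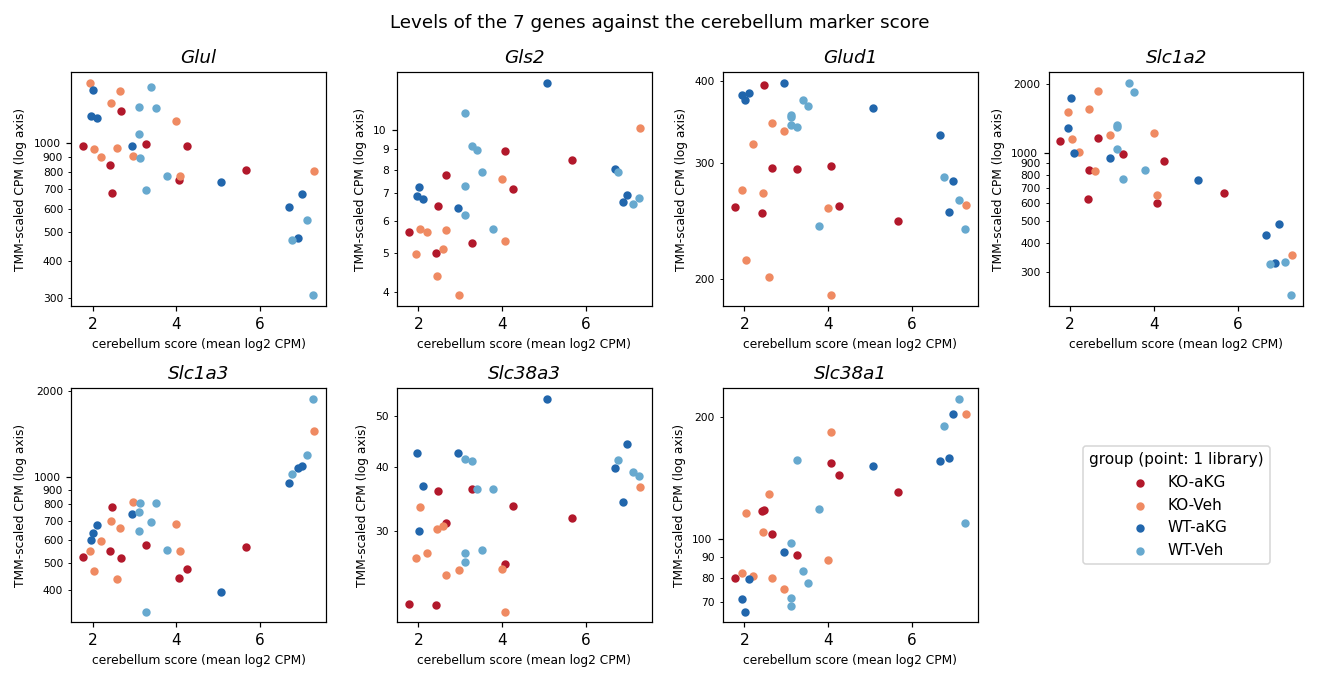
TMM-scaled CPM of the 7 genes on a log axis against the cerebellum score (mean log2 CPM of 21 markers), 1 point per library, coloured by group. Slc1a2 and Glul go down and Slc1a3 and Slc38a1 go up towards the 9 libraries with the highest scores, which run from 5.06 to 7.29.

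The balance of the glial transporters was taken as the log2 ratio of Slc1a2 to Slc1a3 counts within a library, which needs no scaling between libraries. It averaged 0.67 ± 1.03 in KO-Veh and 0.02 ± 1.58 in WT-Veh libraries (SD, n = 10 each), a difference of 0.65 (2-sided permutation test with 100000 resamples, p = 0.313). It averaged 0.62 ± 0.43 in KO-aKG and 0.05 ± 1.21 in WT-aKG libraries (SD, n = 8 each), a difference of 0.57 (2-sided exact permutation test, p = 0.223). Without the 9 libraries of high cerebellum score the difference was 0.012 with vehicle (9 KO-Veh and 7 WT-Veh libraries, exact permutation p = 0.954) and −0.19 with dm-αKG (7 KO-aKG and 4 WT-aKG libraries, exact permutation p = 0.509). Without 1 library at a time it ran from 0.32, without WT-Veh replicate 1, to 0.95 with vehicle, and from 0.32, without WT-aKG replicate 3, to 0.77 with dm-αKG. The treatment differences gave p = 0.966 for WT-aKG against WT-Veh and p = 0.885 for KO-aKG against KO-Veh (exact permutation tests), and all 4 adjusted p-values lay between 0.625 and 0.966. The spread of the ratio was wider in WT than in KO libraries, and 7 of the 9 libraries of high cerebellum score are WT libraries; the part of that score in the spread was not tested. In the 9 libraries of high score the ratio ran from −2.99 to 0.94 with a median of −1.65, against 0.10 to 1.55 with a median of 0.93 in the other 27.

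**Figure D4:**
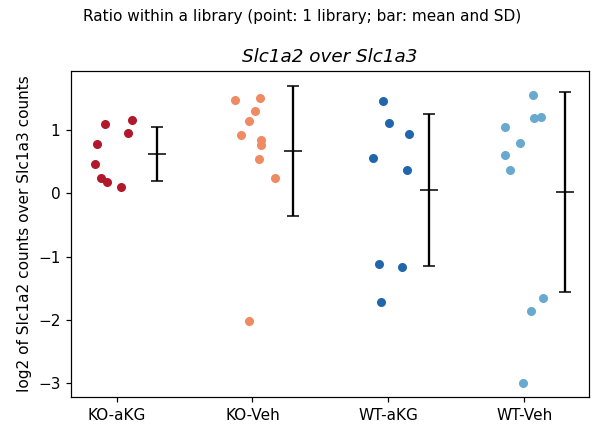
Log2 of Slc1a2 over Slc1a3 counts in each library (points) by group, with the mean and SD beside them (n = 8 KO-aKG, 10 KO-Veh, 8 WT-aKG and 10 WT-Veh). The low points, down to −2.02 in KO-Veh and −2.99 in WT-Veh, are libraries of high cerebellum score.

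Treatment with dm-αKG gave no call among the 7 genes. For WT-aKG over WT-Veh edgeR called 0 of all 16255 genes (0.0%) and had 1389 at an unadjusted p under 0.05, none of them among the 7, while DESeq2 called 78 genes and 0 of the 6 members it adjusted. The fold changes of the 7 ran from −0.20 for Slc1a2 (SE 0.35) to 0.19 for Slc38a3 (SE 0.12, adjusted p = 0.741) on the log2 scale. For KO-aKG over KO-Veh edgeR and DESeq2 called 0 genes (0.0% in edgeR, with 1973 at an unadjusted p under 0.05 and 0 of the 7). There the 7 ran from −0.39 for Slc1a2 (SE 0.35, adjusted p = 0.691) to 0.23 for Gls2 (SE 0.16, adjusted p = 0.606). All 8 KO-aKG libraries had less Slc1a2 than the median of KO-Veh libraries, without a call.

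Whether the genotype difference depends on treatment was tested as the interaction, which called 0 of 16255 genes (0.0%) in edgeR and 0 in DESeq2, with 729 at an unadjusted p under 0.05 in edgeR and 0 of the 7. Its estimates for the 7 ran from −0.31 for Glul (SE 0.34, interval −1.0 to 0.38) to 0.22 for Gls2 (SE 0.23, interval −0.25 to 0.69). For Slc38a3 it was −0.11 (interval −0.47 to 0.24) and for Glud1 −0.03 (interval −0.38 to 0.33). The groups with dm-αKG and those with vehicle share no library. For Glud1 the interval reaches past the size of its genotype difference with vehicle (−0.25) on both sides. For Slc38a3 the interval reaches past that size (−0.33) on the negative side and stops short of it on the positive side.

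The other genes of glutamate and glutamine handling were taken as a list of 23, of which 22 were tested: transaminases and other enzymes, plasma membrane and vesicular transporters, and mitochondrial carriers. With vehicle 1 was higher and 2 were lower in KO (median log2 fold change −0.05), with dm-αKG 1 was higher and 0 lower (median 0.14), and averaged 1 was higher and 3 lower (median 0.06). Over all genes tested, edgeR called 2.6% higher and 1.72% lower with vehicle, and 1.12% higher and 0.751% lower with dm-αKG. Averaged, it called 5.7% higher and 6.17% lower, so the averaged count is read against a high background. Slc1a4, a transporter of alanine, serine and other neutral amino acids in the glutamate transporter family, was the gene that rose. It ranged over 36.8 to 71.0 CPM with a median of 47.2 CPM in KO-aKG, against 17.0 to 37.6 CPM with a median of 26.8 CPM in WT-aKG libraries. It ranged over 27.2 to 70.1 CPM with a median of 50.9 CPM in KO-Veh, against 16.4 to 38.5 CPM with a median of 30.1 CPM in WT-Veh libraries. So 7 of 8 KO-aKG and 9 of 10 KO-Veh libraries lay above every WT library of their treatment, and the KO-Veh library within the WT range was replicate 7. With dm-αKG the log2 fold change was 0.94 (SE 0.18, edgeR adjusted p = 0.00275), with vehicle it was 0.79 (SE 0.16, adjusted p = 0.00284), and it was called under all 13 alternative fits and without each of the 36 libraries in turn. Its slope on the cerebellum score was −0.16 (adjusted p = 2.69e-06), and with that score in the model the averaged fold change was 0.71, against 0.87 without it.

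The Slc1a4 promoter is shown as that of the gene that rose, a choice made with results of these data known. Among the promoters printed only this one holds TGATGNAA, which is in 3.59% of all windows. Those of Slc25a18, Aldh4a1 and Oat were not read singly, and whether the match has a part in the rise was not tested. The Slc1a4 window is chr11:20332704-20332963 on the minus strand of GRCm38.p6, from RefSeq, with capitals as above. The match reads TTGCATCA on the strand of the gene and spans positions −4 to 4 around the start.
Slc1a4: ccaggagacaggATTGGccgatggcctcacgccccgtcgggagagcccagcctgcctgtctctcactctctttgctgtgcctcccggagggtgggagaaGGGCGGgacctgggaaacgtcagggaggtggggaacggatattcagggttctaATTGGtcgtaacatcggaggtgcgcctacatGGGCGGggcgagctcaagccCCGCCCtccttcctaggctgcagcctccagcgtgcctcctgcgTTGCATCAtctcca
It also holds 2 CCAAT boxes and 3 GC boxes.

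The genes that fell with vehicle were Slc25a18, a mitochondrial glutamate carrier, and Aldh4a1, the mitochondrial enzyme that forms glutamate at the end of proline breakdown. Slc25a18 averaged 31.8 ± 8.38 CPM in KO-Veh and 50.8 ± 17.8 CPM in WT-Veh libraries (SD, n = 10 each), and all 10 KO libraries lay below the WT median. Its log2 fold change was −0.67 with an SE of 0.19 (edgeR adjusted p = 0.0341). With dm-αKG its fold change was −0.28 (adjusted p = 0.545). Aldh4a1 averaged 7.38 ± 1.17 CPM in KO-Veh and 9.48 ± 0.986 CPM in WT-Veh libraries (log2 fold change −0.36, SE 0.10, adjusted p = 0.0275), with 7 of 10 KO libraries below the lowest WT library. Averaged over treatments, Slc25a18 (−0.48, adjusted p = 0.0243), Aldh4a1 (−0.28, adjusted p = 0.01) and Oat, which makes glutamate from ornithine, (−0.22, adjusted p = 0.0163) were lower in KO. The vehicle call of Slc25a18 held under 7 of 13 alternative fits and that of Aldh4a1 under 5, and both were lost with the astrocyte score as a covariate (−0.53 with an adjusted p of 0.151 for Slc25a18, and −0.32 with an adjusted p of 0.0862 for Aldh4a1). Over the 13 fits the fold change ran from −0.85 to −0.53 for Slc25a18 and from −0.42 to −0.32 for Aldh4a1. Leaving out any of WT-Veh replicates 2, 4, 5 and 7 or KO-Veh replicates 4, 6 and 10 also ended that of Slc25a18 (adjusted p up to 0.0749), and leaving out WT-Veh replicate 7 or KO-Veh replicates 4, 5 or 10 that of Aldh4a1 (adjusted p up to 0.0575).

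**Figure D5:**
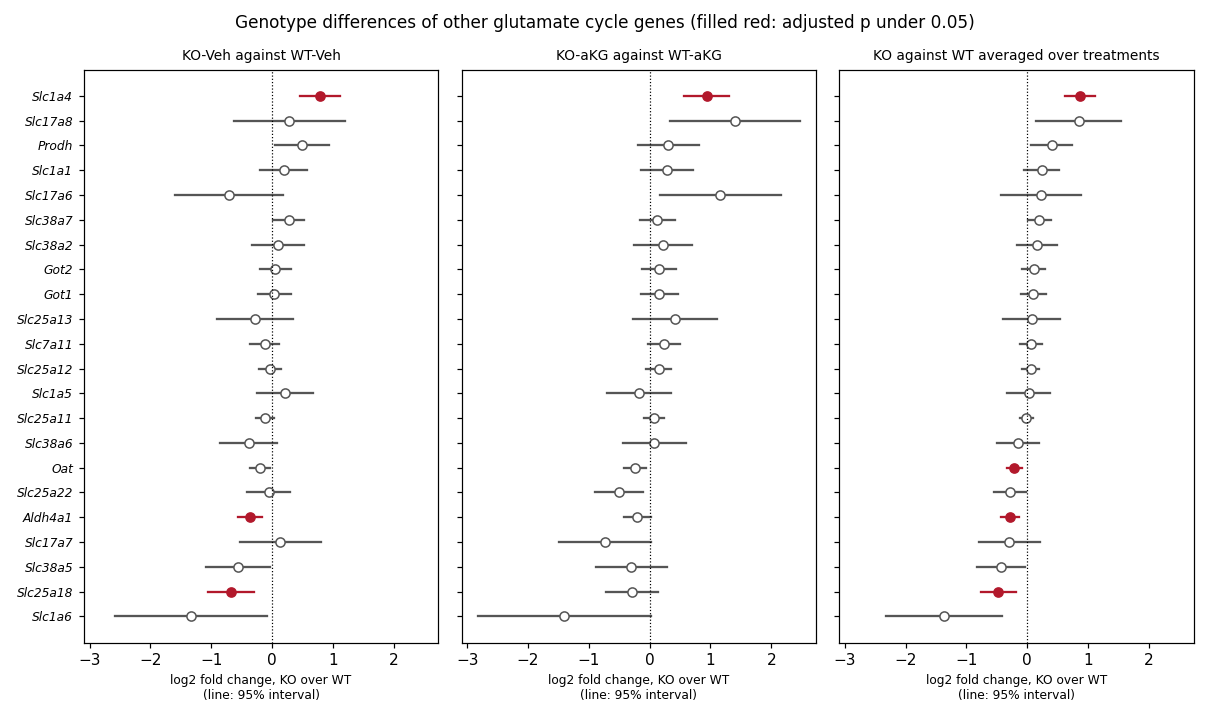
Log2 fold change of KO over WT (x axis) for the 22 other genes of glutamate and glutamine handling with vehicle, with dm-αKG and averaged, as a point with its 95% interval from edgeR, filled red where the adjusted p was under 0.05. Slc1a4 is the filled point on the positive side in each panel, at 0.79, 0.94 and 0.87.

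Of these 22 genes 3 were higher and 9 lower with the cerebellum score, beside 57.7% of all genes called. Slc1a6, named here after its values were seen, encodes EAAT4, the glutamate transporter of Purkinje cells, and had a slope of 0.74 (SE 0.03, edgeR adjusted p = 4.91e-22). Its fold change was −1.33 for KO-Veh over WT-Veh (adjusted p = 0.211) and −1.41 for KO-aKG over WT-aKG (adjusted p = 0.322), beside the lower mean cerebellum scores of the KO groups. Its fold changes with that score in the model are not given here.

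The genes most alike to each of the 7 across the 36 libraries were listed by Pearson's r of log2 CPM among 10319 genes of at least 5 CPM. All libraries share the differences in region and depth given above, so these are descriptions of the pieces. Slc1a2 was most like Brsk1 (r = 0.96, Spearman's rho = 0.95), Ppp1r3g (r = 0.95) and Map2 (r = 0.95). Glul was most like Fbxo31, Rpl4 and Brsk1 (r = 0.94 each, rho = 0.92, 0.93 and 0.94), so that Brsk1 is on both lists. Glud1 was most like Rftn2 (r = 0.84, rho = 0.88), Fads2 (r = 0.81) and Pygb (r = 0.79). Slc1a3 was most like Cnr1, Taf4 and Sybu (r = 0.83 each, rho = 0.64, 0.73 and 0.64), with rho below r. Slc38a1 was most like Aplp2, Ccndbp1 and Sgce (r = 0.87 each). Slc38a3 was most like Fndc5 (r = 0.86, rho = 0.84), Abhd1 (r = 0.81) and Tmem97 (r = 0.80). Gls2 had the weakest likeness, to Acss2 (r = 0.76, rho = 0.75), Pmvk (r = 0.74) and Pnkd (r = 0.72). With group means removed, r was 0.96 for Slc1a2 with Brsk1, 0.80 for Slc38a3 with Fndc5 and 0.71 for Gls2 with Acss2.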

How the data were processed

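Bulk RNA-seq of 36 mouse brain libraries was used. The authors deposited estimated counts per gene symbol, as whole numbers and not normalised, and a CPM table of 21637 genes. Converted back to counts, 85.6% to 88.7% of a library's CPM values were whole within 0.02, the rest being fractional for a reason that is not given. Per the labels' protocols, barcoded oligo-dT primers with molecular identifiers and tagmentation made the libraries. Tools named are Trim Galore 0.6.10, HISAT2 2.2.1, SAMtools 1.6 and featureCounts 2.0.6, and mm10 and mm39 are both named without a role, per the submitters' processing notes. Not given in the sources used here: strand use and identifier handling. Gene positions come from the GENCODE annotation of GRCm38, matched by symbol.

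Tests on counts used edgeR 4.0.16 (R 4.3.3): filterByExpr, TMM, and 1 robust quasi-likelihood fit of 4 groups over all libraries (16255 genes, threshold 0.05). Slopes added a centred marker score (mean log2 CPM of a list) to that fit. The ratio was tested by 2-sided permutation, exact below 10 libraries. Alternatives were DESeq2 1.42.0, limma 3.58.1 on log2(CPM + 1) and log2(CPM + 0.25), other scaling and filtering, marker scores, a sex term from Xist and Ddx3y, a replicate block, and leaving out libraries. The genes, lists and rules for naming were chosen with earlier results of these data known. Named were the 7, Gpt2, other listed genes called in a planned comparison, marker genes and the 3 genes most alike to each of the 7; Oat and Slc1a6 were chosen after their values were seen. On counts simulated without region differences between libraries, the fit was checked to recover known changes. That check does not bear on calls where region markers differ between groups. 1 further gene set down for naming, and a ratio that used it, are not reported here.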

Additional observations from a re-analysis of the deposited data

Results flagged for a closer look

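Of 36 groups of values checked, 6 held a library at 1 end whose gap to the next library was wider than chance gives in about 1 group in 20 (Dixon's test). KO-Veh replicate 7, the KO-Veh library with a high cerebellum score, was the outlying library in 3 of them: its log2 CPM was 10.5 for Slc1a3, the highest of its group, and 4.78 for Slc1a4, the lowest, and its log2 ratio of Slc1a2 to Slc1a3 was −2.02. KO-aKG replicate 5, whose cerebellum score was 2.46, was highest of its group for Glud1 at a log2 CPM of 8.62 and for Slc1a3 at 9.61. Its astrocyte score (7.33) and hypothalamus score (5.11) were the highest of its group, and its cortex score (3.11) the lowest. WT-aKG replicate 8, at 5.06 on the cerebellum score, stood above its group for Gls2 at a log2 CPM of 3.73.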

How the results depend on the processing

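Calls among the 7 genes between KO and WT stayed at 0 in each treatment in most fits. With vehicle 1 was called with 5 region scores as covariates (Glud1) and 1 without the 9 libraries of high cerebellum score (Gls2), and 0 to 2 without 1 library at a time. With dm-αKG DESeq2 called 1. Averaged, where 2 were called, 0 were called without TMM and with limma at either pseudocount, 1 with upper-quartile factors, 1 with no low-count filter, 1 with the astrocyte score as covariate, and 1 to 4 without 1 library. Beside these, the alternative fits called 168 to 1362 of all genes with vehicle, 145 to 630 with dm-αKG and 963 to 2482 averaged. Without 1 library at a time, 440 to 1666 of 16255 genes were called with vehicle, 132 to 360 with dm-αKG and 1465 to 2978 averaged. The upper ends 1666 and 2978 are from the fit without KO-Veh replicate 7. Of the other cycle genes with vehicle, 1 in place of 3 was called without TMM, with no filter, with limma at either pseudocount, with the 2 groups alone and with the astrocyte score, and 1 to 4 without 1 library. Averaged, 2 in place of 4 were called without TMM and with limma, and with dm-αKG 3 in place of 1 without the 9 libraries. The 1 gene with a slope on the astrocyte score became 0 with no filter and under the replicate block, and 0 to 2 without 1 library. Over all genes that slope was called in 1377 of 36686 with no filter and in 628 of 16255 under the block, against 1857. Same-numbered libraries correlated at −0.75 to 0.76, and 8 of 34 correlated best with their own number. The number to be had by chance was not worked out. These correlations take in every difference between libraries, region markers included, so they do not settle whether the numbers pair the libraries. The fit with the replicate block gave −0.40 for Slc38a3 (adjusted p = 0.00524) and −0.26 for Glud1 (adjusted p = 0.0242) averaged, and called the same number of the 7 genes in each comparison. The cause of these changes was not tested.

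The fold changes that turned sign were not called under either setting. For KO-aKG over WT-aKG, without TMM, Glul was at 0.17, Slc1a2 at 0.19 and Slc38a1 at 0.068. With limma at pseudocounts 1 and 0.25, Glul was at 0.22 and 0.22, Slc1a2 at 0.31 and 0.31 and Slc38a1 at 0.19 and 0.19. With upper-quartile factors Glul was at 0.0095 and Slc1a2 at 0.019, and with the replicate block at 0.028 and 0.094. With 5 region scores Glul was at 0.064, Slc1a2 at 0.016 and Slc38a1 at 0.077, and Slc38a1 was at 0.27 with the cerebellum score and at 0.58 without the 9 libraries. For KO-Veh over WT-Veh, with the cerebellum score, 5 region scores and without the 9 libraries in turn, Slc1a2 was at −0.14, −0.13 and −0.089 and Slc38a1 at 0.24, 0.30 and 0.12. Slc38a1 was at 0.073 with the astrocyte score. Averaged, in the same 3 fits, Slc1a2 was at −0.18, −0.058 and −0.27 and Slc38a1 at 0.25, 0.19 and 0.35. Glul was at −0.011 with the cerebellum score and −0.17 without the 9. Slc38a1 averaged 0.024 without TMM, 0.018 with the astrocyte score and 0.075 and 0.076 with limma. Slc1a2 for KO-aKG over KO-Veh was at 0.0030 with 5 region scores. Without the 9 libraries the difference of the log2 ratio of Slc1a2 over Slc1a3 turned to −0.19 between KO-aKG and WT-aKG, and to −0.091 between WT-aKG and WT-Veh. Without 1 library at a time, Slc38a1 ran from −0.19 to 0.082 with vehicle, Glul from −0.12 to 0.11, Slc1a2 from −0.13 to 0.21 and Slc38a1 from −0.16 to 0.081 with dm-αKG, and Slc38a1 from −0.13 to 0.0095 averaged. The ratio difference ran from −0.31 to 0.28 between WT-aKG and WT-Veh, and from −0.35 to 0.041 between KO-aKG and KO-Veh. Among the 7 genes, in the fits that leave out no single library, signs turned in 6 of 91 values for KO-aKG over KO-Veh, 9 of 91 for WT-aKG over WT-Veh and 19 of 84 for the interaction, of which the ones not given above are not listed singly. Depth limits Gls2 most, at 40 to 181 counts per library.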
